A study of Mus musculus with 4 samples.

Results

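The RAD21 peaks of mouse embryonic stem cells were described by where they lay along the autosomes: their spacing, the short runs they formed, their density against that of genes, and their length inside genes, at gene ends and between genes. All rows of the RAD21 list on the 19 autosomes were taken, which gave 74004 of its 76021 peaks, among 149438 peaks in the 3 lists of the study. The 2017 rows left out comprised 1893 on X, 5 on Y, 12 on the mitochondrial genome and 107 on unplaced or unlocalised contigs. The cells were Bruce-4, an embryonic stem cell line of C57BL/6J genotype, kept on gelatin in a medium of serum, 2i and LIF, with no other treatment named. From 10000000 formaldehyde-fixed cells each, 4 libraries were made by ChIP-exo, in which crosslinked fragments are pulled down with an antibody and cut back by an exonuclease toward the bound protein: 1 with an antibody against RAD21, 1 against H3K4me3 and 2 against CTCF, whose peaks came as a single union list. On the autosomes the other lists held 50546 CTCF and 21006 H3K4me3 peaks.

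RAD21 is the kleisin subunit that closes the cohesin ring around DNA. Cohesin is loaded with the help of Nipbl, extrudes loops of chromatin and is halted where CTCF, a zinc finger protein, is bound, so its peaks gather at CTCF sites that anchor loops and domain borders. In stem cells cohesin is also found at active promoters without CTCF. H3K4me3 is a histone mark of active and poised promoters.

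There was 1 RAD21 library, and its list gave positions alone. Depth and peak height were unknown, and no difference between conditions could be tested. Errors are given as Wilson 95% intervals, for counting error alone, or as the SD among the 19 autosomes, which are not replicates of the experiment. A place without a peak shows only that none was called there. As a check of the cell type, H3K4me3 lay within 1 kb of an end of 20 of 22 pluripotency genes and of 6 of 18 fibroblast marker genes, against 58.3% of the 20558 autosomal protein-coding genes. It also lay there at 10 of 13 genes of the primed state and 14 of 20 germ layer regulators.

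Because many RAD21 peaks lay at gene starts, promoter sequences are shown first, to set those under RAD21 peaks that overlap CTCF beside those under peaks that do not. The sequences are RefSeq's for GRCm38.p6 (mm10 coordinates), each running from 250 bases before to 50 bases after a gene start, with 31396 windows in all on 18 autosomes. Only 189 windows lay whole inside a RAD21 peak. The 3 motifs searched on both strands were a CTCF core (CCA, AG and GGC, each 2 bases of any kind apart), the GC box bound by SP1 family factors (GGGCGG) and a YY1 motif (AA, 1 base of any kind, then ATGGCG), and matches are in capitals. In 60 of the 31396 windows matches of different motifs overlapped each other. Nabp2, which encodes a subunit of a complex that binds single-stranded DNA (chr10:128409801-128410100, minus strand, under a 525 bp peak), and Rsad1 (chr11:94549158-94549457, minus strand, under a 508 bp peak) had the longest peaks with CTCF among protein-coding genes whose window held the CTCF core. Both were chosen after their values were seen.
Nabp2: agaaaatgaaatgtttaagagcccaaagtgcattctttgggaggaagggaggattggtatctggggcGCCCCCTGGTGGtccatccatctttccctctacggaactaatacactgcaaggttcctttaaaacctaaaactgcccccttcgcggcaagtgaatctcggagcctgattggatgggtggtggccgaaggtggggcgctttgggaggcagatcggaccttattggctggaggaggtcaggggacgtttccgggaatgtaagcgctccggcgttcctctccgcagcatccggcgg
Rsad1: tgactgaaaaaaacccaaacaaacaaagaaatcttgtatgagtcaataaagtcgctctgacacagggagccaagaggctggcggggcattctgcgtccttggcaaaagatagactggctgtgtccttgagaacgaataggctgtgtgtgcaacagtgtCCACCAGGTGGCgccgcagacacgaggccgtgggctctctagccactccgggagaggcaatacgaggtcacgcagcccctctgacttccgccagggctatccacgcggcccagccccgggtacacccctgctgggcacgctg
Fh1, which encodes fumarate hydratase of the citric acid cycle (chr1:175625586-175625885, minus strand, 841 bp peak), and Zfp763, a zinc finger gene (chr17:33033332-33033631, minus strand, 825 bp peak), lay inside the longest promoter peaks that overlapped CTCF. Neither window held the CTCF core.
Fh1: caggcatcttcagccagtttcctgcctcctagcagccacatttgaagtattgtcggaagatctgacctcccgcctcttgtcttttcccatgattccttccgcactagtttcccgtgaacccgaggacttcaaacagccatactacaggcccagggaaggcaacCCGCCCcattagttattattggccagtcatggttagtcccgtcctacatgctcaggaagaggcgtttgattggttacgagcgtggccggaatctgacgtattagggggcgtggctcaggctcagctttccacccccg
Zfp763: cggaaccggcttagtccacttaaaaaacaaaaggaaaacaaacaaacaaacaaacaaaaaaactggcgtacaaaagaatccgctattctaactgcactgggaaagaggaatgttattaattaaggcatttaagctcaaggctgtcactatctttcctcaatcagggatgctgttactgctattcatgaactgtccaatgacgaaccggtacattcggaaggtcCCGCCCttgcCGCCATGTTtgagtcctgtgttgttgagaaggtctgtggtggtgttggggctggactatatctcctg
Tars, which encodes threonyl-tRNA synthetase (chr15:11399609-11399908, minus strand, 633 bp peak), and Aimp1, a scaffold protein of the synthetase complex (chr3:132683830-132684129, minus strand, 623 bp peak), lay inside long promoter peaks that did not overlap CTCF.
Tars: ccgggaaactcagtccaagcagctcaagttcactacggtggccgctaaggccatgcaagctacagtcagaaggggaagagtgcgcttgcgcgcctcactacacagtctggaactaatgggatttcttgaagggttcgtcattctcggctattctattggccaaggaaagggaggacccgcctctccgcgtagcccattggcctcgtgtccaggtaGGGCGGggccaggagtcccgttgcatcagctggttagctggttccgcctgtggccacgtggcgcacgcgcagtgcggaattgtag
Aimp1: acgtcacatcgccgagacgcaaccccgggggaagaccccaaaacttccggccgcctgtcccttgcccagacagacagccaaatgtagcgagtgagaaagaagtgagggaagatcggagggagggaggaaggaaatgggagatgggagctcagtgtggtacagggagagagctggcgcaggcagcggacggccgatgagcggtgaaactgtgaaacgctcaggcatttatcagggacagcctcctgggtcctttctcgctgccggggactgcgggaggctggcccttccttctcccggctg

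The CTCF core was most frequent in promoter windows touched by a RAD21 peak with CTCF. Of 1996 such windows 251 held it (12.6%, 95% interval 11.2 to 14.1%). The share was 2.10% (1.63 to 2.71%) of the 2759 windows touched only by RAD21 without CTCF and 1.75% (1.60 to 1.92%) of the 26641 windows that no RAD21 peak touched. Over all 31396 windows of the same length it was 2.47%, or 776 windows, of which 467 were touched by no RAD21 peak. The GC box followed another order, at 56.9% of windows with RAD21 and CTCF, 63.4% with RAD21 alone, 31.6% without RAD21 and 36.0% of all. The YY1 letters were at 3.61%, 5.47%, 1.94% and 2.35% in the same order. Several windows can belong to 1 gene, so these intervals treat as separate some windows that share sequence.

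RAD21 peaks were closely and unevenly spaced. The midpoints of neighbouring peaks lay a median of 15821 bp apart (quartiles 7124 and 34847 bp), with an SD over the 19 autosomes of 1786 bp. The mean, 32413 bp, was 2.05 times the median. Chromosome 11 had the narrowest median, 13373 bp, and chromosome 3 the widest, 18902 bp. CTCF peaks, fewer in number, had nearly the same median spacing, 16898 bp (SD 3265 bp), and a wider mean of 47394 bp. For H3K4me3 the median was 34658 bp.

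Of 73985 neighbouring pairs, 35.9% (95% interval 35.5 to 36.2%) were 10 to 30 kb apart and 23.4% (23.1 to 23.7%) 3 to 10 kb apart. Pairs under 1 kb made up 4.85% (4.69 to 5.00%) and pairs over 300 kb 0.764% (0.703 to 0.829%). For scale, exponentially distributed distances with the same mean would put 3.04% of pairs under 1 kb, 35.1% at 30 to 100 kb, where 23.1% were observed, and 0.00956% over 300 kb. This reference is a formula, given without a test. In the CTCF list 4.58% of pairs lay under 1 kb and 2.43% over 300 kb.

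**Figure D1:**
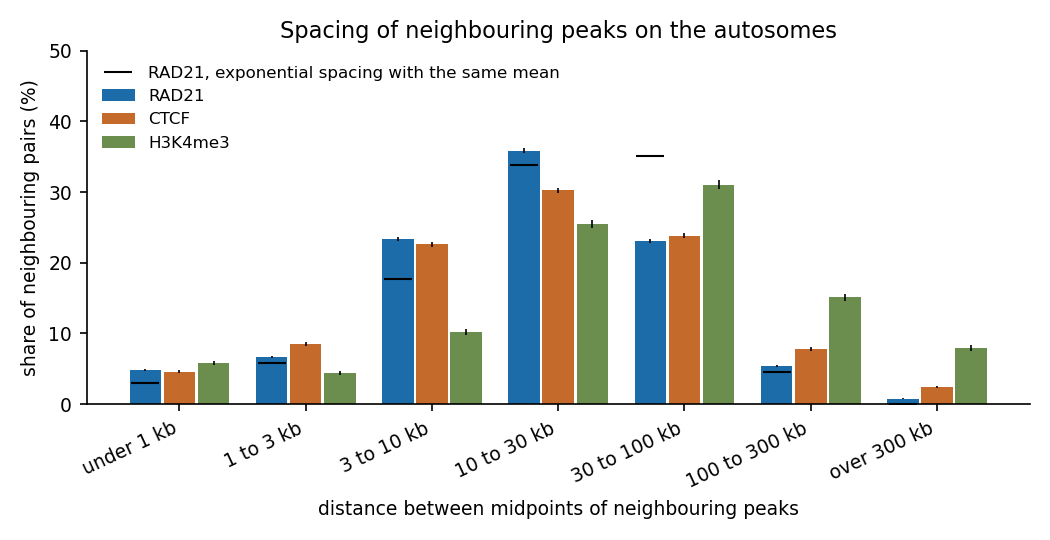
Share of neighbouring pairs of peaks (vertical axis, %) by the distance between their midpoints (horizontal axis, 7 classes) for the RAD21, CTCF and H3K4me3 lists on the autosomes, with Wilson 95% intervals as error bars; black dashes give an exponential distribution with the mean of the RAD21 list. RAD21 pairs are most frequent at 10 to 30 kb (35.9%), and at 30 to 100 kb they fall below the dash (23.1% against 35.1%).

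The closest neighbours were crowded at the lower limit of the list. No 2 RAD21 peaks lay less than 153 bp apart from edge to edge, the same lower limit as in the H3K4me3 list, whereas the CTCF union list stopped at 201 bp. Just above the limit, between 150 and 200 bp, there were 671 pairs, or 1342 per 100 bp of distance. Between 500 and 750 bp this had dropped to 342.4 per 100 bp, and between 2500 and 3000 bp to 206.2. Whether a pair this close stands for 2 sites or for 1 site called in 2 pieces was not tested.

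Spacing differed with CTCF. Neighbours that both overlapped CTCF were a median of 11790 bp apart (SD over autosomes 1016 bp, 25736 pairs), neighbours of which 1 did 17387 bp (SD 1585, 31289 pairs) and neighbours of which neither did 21530 bp (SD 2668, 16960 pairs). The median for neither exceeded that for both by 9444 bp ± 1967 (SD, n = 19 autosomes), on 19 of 19 autosomes. RAD21 peaks with CTCF were more often next to each other than a free mixing of the list would give: both neighbours had CTCF in 34.8% of pairs, against 31.3% from the square of the overall share, and neither had it in 22.9%, against 19.4%.

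Pairs with CTCF on both sides had their highest share at 1 to 3 kb. They were 55.9% of the 4951 pairs at that distance, 43.8% of those at 3 to 10 kb, 30.1% of the 3586 pairs under 1 kb, 34.8% of pairs at 10 to 30 kb and 11.3% of the 565 pairs over 300 kb. Pairs with CTCF on neither side ran from 14.3% at 1 to 3 kb to 46.4% over 300 kb, but were 28.6% of the pairs under 1 kb. Of all pairs with CTCF on neither side 6.06% were under 1 kb, against 4.20% of those with CTCF on both. Peaks at the edge of the widest gaps were also the shortest, with a median of 112 bp over 300 kb against 147 bp at 10 to 30 kb. The lengths of neighbours were almost unrelated (Spearman's rho 0.0203 over 73985 pairs, a description, since each peak enters 2 pairs).

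Spacing was also described by position in genes. Neighbours that both lay at gene ends, within 1 kb of where a protein-coding or lncRNA gene begins or stops, were a median of 6097 bp apart (SD 1697, 3121 pairs), and 41.6% of them were under 3 kb. Peaks at the same gene end are under 3 kb apart by the definition of the class, so its value cannot be set against the others. Inside genes the median was 13936 bp (SD 1444) with 12.9% under 3 kb, and between genes 16020 bp (SD 2443) with 13.9%.

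Runs were defined as 2 or more RAD21 peaks, each at most 3 kb from the next by their edges. They took in 16779 of the 74004 peaks, 22.7% (95% interval 22.4 to 23.0%, SD over autosomes 2.12), in 7902 runs, while 57225 peaks stood alone. The share ran from 18.7% on chromosome 18 to 26.7% on chromosome 11. Most runs were pairs, 7064 of them, followed by 724 runs of 3, 96 of 4, 15 of 5, 1 of 6 and 2 of 7. The median run covered 1587.5 bp and the longest 11846 bp. In the CTCF list 25.2% of peaks (SD 2.85) were in runs made the same way, and in the H3K4me3 list 20.7% (SD 2.68).

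Peaks in runs overlapped CTCF, H3K4me3 and gene ends more often than single peaks did, and they were not longer. CTCF was at 62.5% of peaks in runs and 54.0% of single ones, with a difference of 7.94 percentage points ± 1.92 (SD, n = 19 autosomes). H3K4me3 was at 14.8% and 8.27%, a difference of 6.55 ± 1.66, and 22.1% against 13.7% lay at gene ends, a difference of 8.21 ± 1.92. Each of these differences was above 0 on 19 of 19 autosomes. Peaks that share a gene end fall in the same run by the definitions used, so the gene-end difference is partly built in. With run size the CTCF share went from 60.9% (60.1 to 61.8%) in pairs to 69.6% (67.6 to 71.5%) in runs of 3 and 77.5% (73.5 to 81.0%) in the 479 peaks of larger runs. These intervals treat peaks of the same run as separate. The SD over autosomes was wider, at 3.80, 6.68 and 12.7 percentage points in the same order.

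RAD21 peaks with CTCF were shorter in runs than alone. Their median was 194 bp as single peaks, 165 bp in pairs, 140 bp in runs of 3 and 133 bp in runs of 4 or more. Runs against single peaks gave a difference of -34.2 bp ± 5.01 (SD, n = 19 autosomes), below 0 on 19 of 19 autosomes. It was not recomputed with close peaks joined, and whether sites called in 2 pieces enter it was not tested. For peaks without CTCF the medians were 94 bp alone, 96 bp in pairs, 96 bp in runs of 3 and 91 bp in larger runs, and the difference of 1.66 bp ± 4.35 was within the spread over autosomes.

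**Figure D2:**
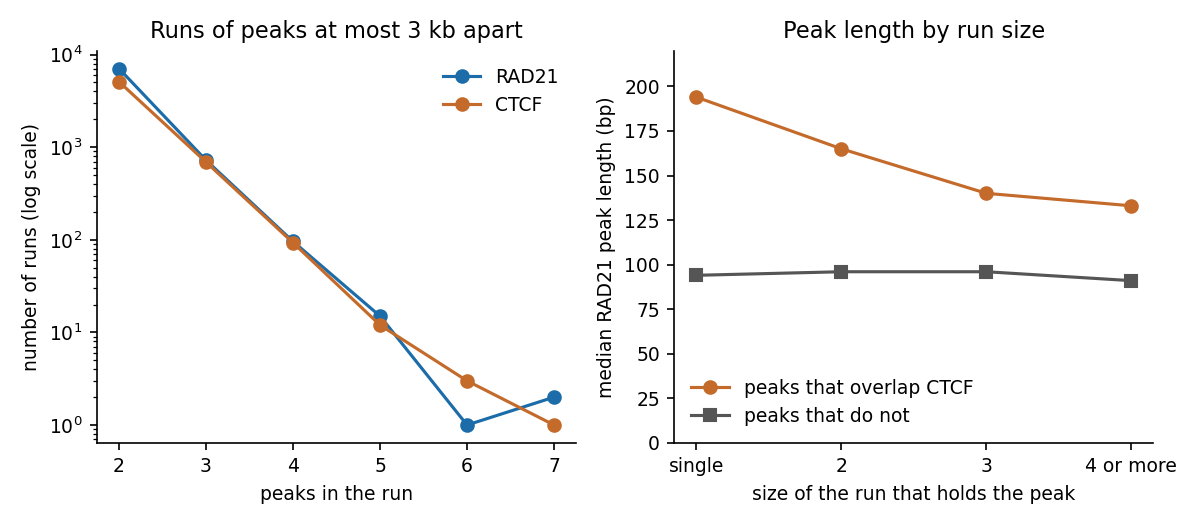
Left, the number of runs (log scale) by the number of peaks they hold, for the RAD21 and CTCF lists on the autosomes; right, the median RAD21 peak length (bp) by the size of the run that holds the peak, for peaks with and without CTCF. Runs of RAD21 go from 7064 pairs to 2 runs of 7, and the length of peaks with CTCF goes from 194 bp alone to 133 bp in runs of 4 or more while that of peaks without CTCF stays between 91 and 96 bp.

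The make-up of a run changed with its size. CTCF overlapped every peak in 3439 runs (43.5%), some peaks in 2863 (36.2%) and none in 1600 (20.2%). Among the 838 runs of 3 or more, 66 (7.88%) had no peak with CTCF, against 21.7% of pairs, and 42.1% touched a gene end, against 29.3% of pairs. An H3K4me3 peak lay within the span of 37.6% of the larger runs and 24.3% of pairs. A longer run has more chances to hold a peak with CTCF, to touch a gene end and to span an H3K4me3 peak. Counted by RAD21 peak, H3K4me3 was at 14.6% in pairs, 17.3% in runs of 3 and 11.3% in runs of 4 or more. The SD over autosomes was 1.37, 5.04 and 13.2 percentage points in the same order.

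The 10 runs with most peaks, chromosome 18 aside, held 5 to 7 peaks each. The longest, on chromosome 15 from 101231123 to 101242968, began in Grasp, which encodes a scaffold protein of neurons, and went on toward Nr4a1, an immediate early gene 10933 bp beyond it. Its 7 peaks were 131, 73, 85, 91, 170, 308 and 113 bp long, and 5 of them overlapped CTCF. The other run of 7, on chromosome 12 from 113216067 to 113223029, lay 26543 bp from Tmem121 and 33.2 kb from Igha, the outermost constant region gene of the immunoglobulin heavy chain locus. All 7 of its peaks overlapped CTCF and none H3K4me3, and their lengths were 132, 85, 124, 82, 107, 386 and 121 bp. CTCF sites beyond the constant regions are known to border this locus.

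Cited2, which encodes a coactivator that binds CBP and p300, had the run of 6, on chromosome 10 from 17716324 to 17724470. It differed from the runs of 7 in that 2 of its peaks overlapped CTCF and 3 overlapped H3K4me3. Its peaks were 92, 71, 169, 166, 148 and 86 bp long. The runs of 5 with the longest spans lay in Atad1, an ATPase of the mitochondrial outer membrane (3 of 5 peaks with CTCF), 97 bp from Akap1, an anchor of protein kinase A (4 of 5), and at an end of Bcl9l, a cofactor of beta-catenin (4 of 5). At Slc29a1, a nucleoside transporter, all 5 peaks overlapped CTCF, with lengths of 102 to 176 bp. Of the runs with no coding gene in them, 1 lay 28074 bp from Ndufb4, a complex I subunit, with 4 of 5 peaks overlapping CTCF, and 1 lay 20644 bp from Rack1, a ribosomal scaffold protein, with 5 of 5.

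RAD21 density was described in windows of 1 Mb, of which 2413 lay between the first and last gene or peak of each autosome. A window held a median of 28 RAD21 peaks (quartiles 14 and 45, range 0 to 99). The variance was 12.4 times the mean. The 241 densest windows, each of at least 59 peaks, held 22.1% of all RAD21 peaks and 26.8% of protein-coding genes. There were 15 windows with no RAD21 peak, and 13 of these held at least 1 protein-coding gene.

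Gene-rich windows held more RAD21 peaks. Spearman's rho between peaks and protein-coding genes was 0.722 and Pearson's r 0.617 over the 2413 windows, which are neighbours along chromosomes and share 1 library. Within single autosomes rho ran from 0.490 on chromosome 7 to 0.881 on chromosome 15. Windows with no gene had a median of 7 peaks (quartiles 5 and 10), those with 1 to 2 genes 14, with 6 to 10 genes 36, and with 31 to 67 genes 62.5 (quartiles 36.5 and 72.25). The number of peaks per gene went the other way, from 11.8 in windows of 1 to 2 genes to 1.35 in those of 31 or more. By whole autosome, density ran from 24.5 peaks per Mb on chromosome 14 to 41.6 on chromosome 11.

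RAD21 peaks without CTCF followed gene density less closely, at a rho of 0.532, than the CTCF list did, at 0.753, or H3K4me3, at 0.801. RAD21 and CTCF counts per window had a rho of 0.962, and RAD21 and H3K4me3 counts 0.902. All of these describe the same windows and were not tested against each other.

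The 4 windows with most RAD21 peaks were gene-rich parts of chromosomes 7, 8 and 17. The first, at 19 to 20 Mb of chromosome 7, held 99 peaks and 53 genes, with 4 peaks each in Eml2, Fbxo46 and Mark4. Next came 96 peaks at 70 to 71 Mb of chromosome 8, among them 5 in Ell, which encodes an elongation factor of RNA polymerase II. At 84 to 85 Mb of the same chromosome there were 93 peaks, and 27 of them lay in Cacna1a, which encodes a calcium channel of neurons. The window at 35 to 36 Mb of chromosome 17, in the major histocompatibility complex, had 92 peaks and 61 genes and was also among the 5 windows with most genes. Pou5f1, the core pluripotency factor Oct4, lies in it, with 12 RAD21 peaks within 50 kb. The rest of the 10 held 84 to 89 peaks each and lay on chromosomes 4, 5, 7, 17, 2 and 15. Their genes of most peaks were, in that order, Fhad1, Hip1, Actn4, Fkbp5, Abl1 and Plec. Abl1, a tyrosine kinase, had 12, in a window of only 14 genes.

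Gene number and RAD21 density parted in windows of olfactory receptor genes, the odour receptors of nasal neurons that sit in large tandem arrays. The 53 windows with 5 or more of them held a median of 27 genes but 24 RAD21 peaks (quartiles 14 and 37, range 5 to 70). The 672 windows with at least 10 genes and no olfactory receptor gene held a median of 16 genes and 51 peaks (quartiles 38 and 61, range 0 to 99). The quartiles did not overlap, but the ranges did. CTCF and H3K4me3 peaks were also fewer there, with medians of 12 and 7 against 38 and 17. Without any window that held an olfactory receptor gene, rho over the other 2332 windows was 0.755. This comparison was made after the windows had been seen.

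**Figure D3:**
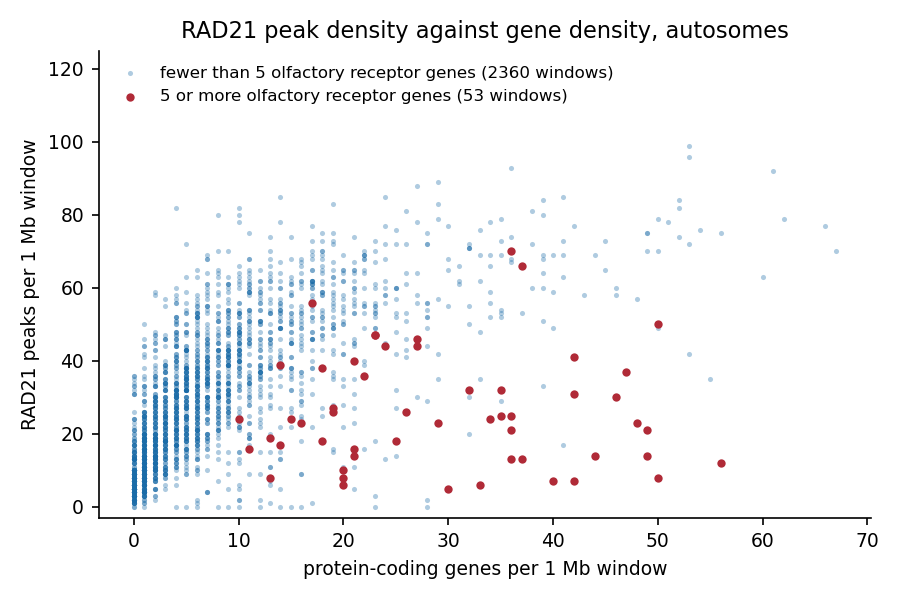
RAD21 peaks per 1 Mb window (vertical axis) against protein-coding genes per window (horizontal axis) for the 2413 autosomal windows, with the 53 windows of 5 or more olfactory receptor genes in red. Blue points rise with gene number (rho 0.722 over all windows), and most red points lie low for their gene number, at a median of 24 peaks.

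The widest gaps between neighbouring RAD21 peaks were not all gene deserts. Of 162 gaps over 500 kb, 79 overlapped no protein-coding gene, and 21 gaps were over 1 Mb. The longest, 3.34 Mb of chromosome 7 from 20064478 to 23405750, held 86 protein-coding genes, of which 70 were vomeronasal receptors (Vmn), the pheromone receptors of rodents. The second, 2.95 Mb from 7188574 to 10140176 of the same chromosome, held 26 genes, among them Clcn4 and 23 vomeronasal receptors. The third, on chromosome 4 (2.49 Mb), held 18 genes, with Rex2 and 15 whose symbols are a Zfp number. The fourth, on chromosome 14 (2.47 Mb), held 35 genes, 31 of them named only by a Gm number, and the fifth, on chromosome 2 (2.25 Mb), 23 genes with 16 of that kind. In these 5 gaps together the CTCF list had 1 peak and the H3K4me3 list 2. RAD21 was absent there by the definition of a gap, and the CTCF and H3K4me3 lists were nearly empty in the same places. Whether reads could be placed there was not tested.

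RAD21 peaks were short. The median length was 141 bp (quartiles 88 and 234 bp, longest 1160 bp), and 11912 peaks (16.1%) had the shortest length, 71 bp. The median varied little between autosomes, from 138 to 145 bp. In position, 11549 peaks (15.6%) lay at gene ends, 34997 (47.3%) inside genes and 27458 (37.1%) between genes.

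Over all peaks, length differed little with position. Medians were 153 bp at gene ends (SD over autosomes 5.49), 137 bp inside genes (SD 2.74) and 141 bp between genes (SD 4.36). Gene ends exceeded the space between genes by 12.3 bp ± 6.84 (SD, n = 19 autosomes), on 18 of 19 autosomes, and exceeded gene interiors by 16.3 bp ± 6.03, on 19 of 19. Interiors differed from the space between genes by -3.95 bp ± 5.59, below 0 on 15 of 19 and smaller than the spread over autosomes.

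Split by CTCF, the order of positions was not the same in both parts. Without CTCF, peaks at gene ends had a median of 118 bp, against 92 bp between genes, a difference of 26.5 bp ± 7.15 (SD, n = 19 autosomes) that was above 0 on 19 of 19. With CTCF the medians were 189 bp at gene ends and 195 bp between genes, and the difference, -4.58 bp ± 8.98, was within the spread over autosomes. With CTCF it was gene interiors that were short: 174 bp, with a difference from the space between genes of -19.9 bp ± 8.81, below 0 on 19 of 19 autosomes. Without CTCF interiors and the space between genes had medians of 91 and 92 bp.

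**Figure D4:**
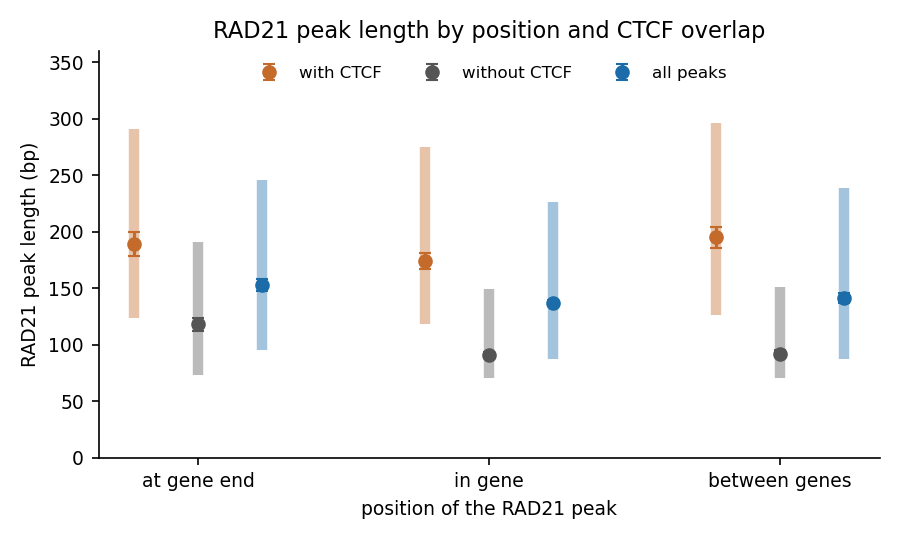
RAD21 peak length (bp) by position and overlap with CTCF: points are medians, error bars the SD of the median over 19 autosomes, and pale bars the quartiles. Without CTCF the gene ends stand above the other positions (118 bp against 91 and 92 bp), and with CTCF the gene interiors lie lowest (174 bp against 189 and 195 bp).

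H3K4me3 moved with the length of peaks without CTCF at gene ends. Those that overlapped H3K4me3 had a median of 140 bp (SD 10.0, 2923 peaks) and those that did not 99 bp (SD 8.68, 2525 peaks). Without either mark, gene ends exceeded the space between genes by 7.76 bp ± 9.55 (SD, n = 19 autosomes), above 0 on 16 of 19 and smaller than the spread. With CTCF and without H3K4me3, gene ends were shorter than the space between genes (178 against 193 bp), with a difference of -13.1 bp ± 10.7 that was below 0 on 15 of 19 autosomes. They differed from gene interiors in that class (173 bp) by 6.16 bp ± 9.23, above 0 on 13 of 19. The part of H3K4me3 in the length was not tested beyond this split. Inside genes the medians without CTCF were 137 bp with H3K4me3 (819 peaks) and 89 bp without it. The longest class was between genes with CTCF and H3K4me3, 438 peaks with a median of 305.5 bp and a wide spread over autosomes (SD 67.0).

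The few longest RAD21 peaks lay mostly between genes and held CTCF. Of the 10 longest, chromosome 18 aside, at 971 to 1160 bp, all overlapped CTCF and 9 lay between genes. Long peaks as a whole were not concentrated there. Peaks over 300 bp made up 15.4% of those at gene ends, 12.4% inside genes and 14.3% between genes. The longest of the 10, 1160 bp on chromosome 2 from 85123118 to 85124277, was 12082 bp from Aplnr, the apelin receptor gene, and held 2 CTCF peaks. Those nearest Cldn4, a tight junction gene (1123 bp), and Lsamp, a neuronal adhesion gene (1097 bp), also overlapped H3K4me3. The others lay near Eif1b, Serpina3n, Otol1, Jup, Zbp1 and Numbl, with Gm34766 the only gene that had one within 1 kb of an end, and 8 of the 10 held 2 CTCF peaks. Such peaks were rare: 122 RAD21 peaks held 2 CTCF peaks, with a median of 593 bp (quartiles 479.5 and 699 bp), against 183 bp for the 41265 with 1 CTCF peak. A longer peak has more room for a further one.

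Starts and 3' ends of genes were then separated, for the 10549 protein-coding genes of at least 10 kb whose strand the promoter table gave. RAD21 was within 1 kb of the start of 3991 (37.8%, 95% interval 36.9 to 38.8%, SD over autosomes 3.30) and of the 3' end of 1174 (11.1%, 10.5 to 11.7%, SD 1.84). Around starts the peaks were most frequent in the 250 bp just upstream, at 131 peaks per 1000 genes, 12.8 times the mean of the flanks 3 to 5 kb away (10.2). For peaks without CTCF the same bin was 27.3 times its flanks (79.1 against 2.89 per 1000 genes), and for peaks with CTCF 7.09 times (51.9 against 7.33). Around 3' ends the 250 bp before the end held 8.15 peaks per 1000 genes and the 250 bp after it 14.9. The flanks 3 to 5 kb away had a mean of 13.7, but their sides differed. Every 250 bp bin of the flank inside the gene lay below 13.7, and those of the flank beyond it ran from 14.8 to 17.7. The 14.9 just after the end was thus within the range of the flank on its own side.

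The peaks at starts and 3' ends differed in what they overlapped. Of 4246 peaks at starts alone 41.7% overlapped CTCF and 64.4% H3K4me3, and of 1138 at 3' ends alone 73.5% and 8.70%. Medians without CTCF were 130 bp at starts and 104 bp at 3' ends, a difference of 23.5 bp ± 27.7 (SD, n = 18 autosomes), above 0 on 15 of 18 and smaller than the spread. With CTCF they were 187 and 180.5 bp, a difference of 0.0833 bp ± 33.7.

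**Figure D5:**
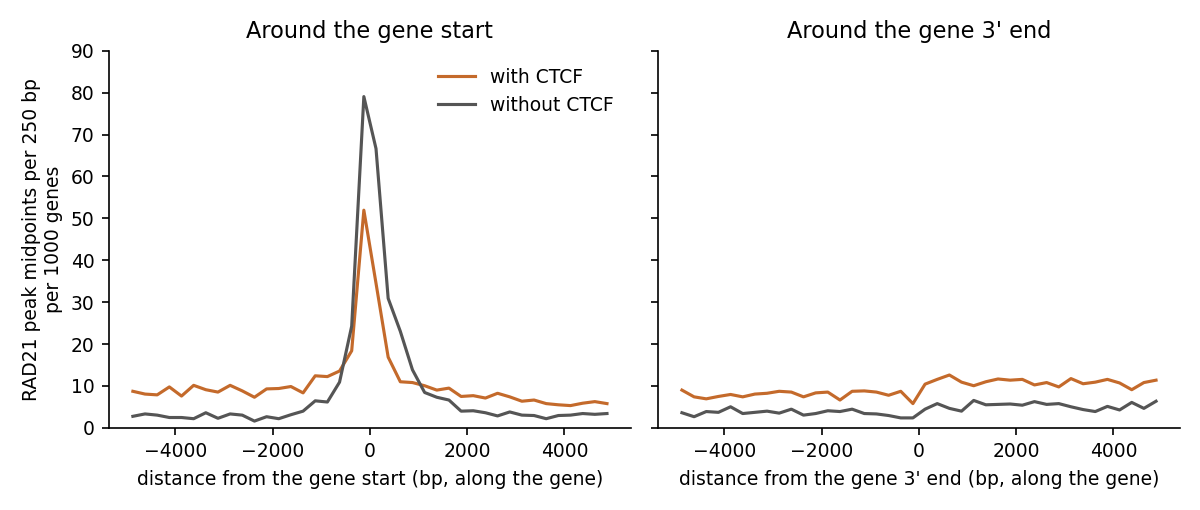
RAD21 peak midpoints per 250 bp per 1000 genes (vertical axis) by distance from the start (left) and the 3' end (right) of 10549 protein-coding genes, in the direction of the gene, for peaks with and without CTCF. Peaks without CTCF reach 79.1 per 1000 genes just upstream of the start, above the 51.9 of peaks with CTCF, and neither curve has a like summit at 3' ends.

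Per gene, RAD21 peaks inside became more frequent but less dense with gene length. At least 1 peak lay inside 60.9% of the 20558 protein-coding genes and within 1 kb of an end of 39.6%, and a run overlapped 18.7%. Genes under 5 kb had a peak in 16.5% of cases and those of 100 to 200 kb in 97.4%. Pooled density went from 8 peaks per 100 kb in genes under 5 kb to 1.94 in the 216 genes of 500 kb or more. Camta1, a transcription activator gene of 802 kb, and Cdh13, a cadherin gene of 1185 kb, held most, with 48 peaks each, followed by Pde4d (42), Dpp6 (39), Etl4 (38), Nav2 and Tenm3 (37 each), Sox5 (36) and Kalrn (34).

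Among the 2312 genes of at least 100 kb the median was 3.15 peaks per 100 kb (quartiles 1.87 and 4.68). Cracdl had the highest density, 12 per 100 kb from 13 peaks. Myo18a, an unconventional myosin, had 11.7, Atp9a, a flippase, 11.1, and Ryr1, the calcium release channel of skeletal muscle, 10.7. Arntl, a core clock gene, had 10.3, and Abl1 10.1, while 2900026A02Rik, Srrm4, Cyfip2 and Ano10 lay between 10.1 and 11.1. At the other end 44 genes of this size had no RAD21 peak inside. The first by name were Acss3, Adam23, Adgrl4, Aldh1a1, an enzyme of retinoic acid synthesis, and Arhgef11.

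Genes of the 10 lists were set beside all protein-coding genes by the number of RAD21 peaks in the gene and 50 kb on either side, whose median over all genes was 7 (quartiles 4 and 9). The lists were chosen with earlier results of these data known, and their values are a description. Pluripotency genes had a median of 9 peaks (range 4 to 12, 22 genes), and 15 of 22 (68.2%) had one inside, against 60.9% of all genes. RAD21 was at an end of 6 (27.3%), against 39.6% of all genes, and a run overlapped 3 (13.6%), against 18.7%. Pou5f1 and Tbx3 had 12 each, and Nr5a2, an orphan nuclear receptor gene, had 4 and Klf2 5. Genes of the primed state had a median of 7 (range 4 to 19, 13 genes), from 4 at Fgf5 and Zic2 to 11 at T (Brachyury) and 19 at Dnmt3a, a DNA methyltransferase gene with 10 peaks inside. Germ layer regulators had a median of 6.5, with 12 at Hnf4a, 11 at Cdx2, 4 at Foxa2 and 1 at Mixl1. None of these medians left the quartiles of all genes.

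Genes of cohesin itself and its regulators had a median of 9 peaks (range 4 to 17, 15 genes). RAD21 was inside 14 of the 15, against 60.9% of all genes, and at an end of 8, against 39.6%. Their median length was 44.4 kb, and of all genes of 20 to 50 kb 78.6% held a peak. Stag1, a cohesin subunit gene of 361 kb, had 17 nearby, Espl1, the separase that cleaves RAD21, 14, and Ctcf 13. Cdca5, Ctcfl and Mau2 had 11 each, Pds5a 9, Esco2, an acetyltransferase of SMC3, and Nipbl, the loader, 7, and Pds5b and Smc3 6. Wapl, the release factor, had 5, and Rad21 and Sgo1 had 4 each. Rad21 was the 1 member of the 15 with no RAD21 peak inside, and it had none at an end.

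Long genes of neurons, of a median length of 1467 kb, had a median of 1.31 peaks per 100 kb of gene and flank over 24 genes, against 4.99 over all genes. Density fell with gene length over all genes, and no comparison at matched length was made. The list was uneven. Cdh13 and Sox5 had 51 and 40 peaks in and near the gene, while Cntnap5a and Nrg3, of similar length (903 and 1108 kb), had 5 each. The share of those peaks with CTCF was 62.7% at Cdh13 but 30% at Sox5 and 20% at Cntnap5a and at Nrg3.

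Olfactory receptor genes had a median of 1 peak in their surroundings over 1103 genes, and 328 of them, Olfr1002 and Olfr1014 among them, had none. The range reached 11 at Olfr70 and 10 at Olfr221. RAD21 lay at an end of 42 (3.81%, against 39.6% of all genes), and no run overlapped any of the 1103, against 18.7% of all genes. Their median length was 0.951 kb, and a short gene has less room for a run. Other lists of short genes were also low: a run overlapped 5.19% of ribosomal protein genes (median 3.18 kb), 2.56% of Hox genes (3.74 kb) and 2.04% of keratin genes (7.42 kb). No comparison at matched length was made. Keratin genes, another set of tandem arrays, had a median of 6 (range 1 to 11, 49 genes), with 11 at Krt80, 9 at Krt78, 2 at Krt19 and 1 at Krt15.

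Hox genes had a median of 7 peaks (range 4 to 12, 39 genes), of which a median of 83.3% overlapped CTCF, against 63.6% over all genes. Their flanks overlap each other, so the same peaks are counted for several genes. Hoxd11 and Hoxd12 had 12 each, Hoxc13 5 and Hoxd1 4. Ribosomal protein genes also had a median of 7 (range 2 to 16, 77 genes), with RAD21 at an end of 41, or 53.2%, against 39.6% of all genes. A peak lay inside 21 of them, or 27.3%, against 60.9% of all genes and 16.5% of all genes under 5 kb. Rpl13 had 16 and Rpl38 14, and Rplp0 3 and Rpl10l 2. Fibroblast marker genes had a median of 5 (range 1 to 13, 18 genes), from 1 at Dcn and Lum, proteoglycan genes of the extracellular matrix, to 12 at Pdgfra and 13 at Col5a1.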

How the data were processed

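ChIP-exo peaks of RAD21, CTCF and H3K4me3 from Bruce-4 mouse embryonic stem cells were analysed. The submitters' processing notes name MACS2, bedtools 2.30.0, Picard 2.27.4 and Bowtie2 2.4.5, and the build mm10, with no role for any. Settings, threshold and control are not stated there. The authors deposited each list as chromosome, start and end with no score column, so the only measures were position and length in bp. A single CTCF list, called a union by its name and filed with replicate 2, was used, and how it joins the CTCF libraries is not stated.

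The calculations used scipy 1.17.1, pandas 2.3.3 and numpy 2.4.6 under Python 3.11.15, and the plots matplotlib 3.10.9. The code was checked on simulated intervals, and runs and overlaps against bedtools 2.31.1. An overlap was at least 1 bp. Gene ends were the outermost ends of 20558 protein-coding and 12322 lncRNA genes in a RefSeq table of GRCm38.p6. Another 107 protein-coding and 86 lncRNA genes, which the table names by chromosome but places by scaffold coordinates, were left out. Strand came from the RefSeq promoter table, which matched 16457 protein-coding genes (80.1%) on 18 autosomes; the other 4101 were not used there. Medians are over all autosomal peaks, and differences are means over autosomes of within-autosome differences of medians or shares.

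With 1 library no test was made. Members and lists were chosen with earlier results of these data known. Genes on autosomes other than 18 were named by rule: the 10 runs and 10 windows with most peaks, the 5 windows with most genes, the 5 longest gaps, the 10 longest peaks, the 10 genes with most peaks, those of 100 kb or more with the 10 highest and first 5 lowest densities, the 2 highest and 2 lowest of each list, and all cohesin genes. Up to 3 genes per run, window or gap were eligible, and some items that the rule selects are not reported here. Of the promoters selected by the longest peaks, Gm52554 and 2610044O15Rik8 were not printed. Sox3, Smc1a, Stag2, Hdac8 and Dmd are not among the autosomal protein-coding genes and were left out. Alternatives varied run gaps, windows, gene ends and the peaks kept.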

Additional observations from a re-analysis of the deposited data

Results flagged for a closer look

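The RAD21 list also held 124 peaks outside the autosomes and X, which no comparison used: 107 on unplaced or unlocalised contigs, 12 on the mitochondrial genome and 5 on Y. No control library was used here, so they have no background to be set against.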

How the results depend on the processing

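The median spacing of 15821 bp rose to 17653.5 bp without the shortest peaks and to 29911 bp when only peaks longer than the median were kept, which leaves fewer peaks in the same genome. The share of peaks in runs, 22.7% at gaps of 3 kb, was 10.8% at 1 kb, 31.7% at 5 kb and 56.7% at 10 kb, 10.4% with only the longer peaks, and 19.2% when peaks at most 300 bp apart were first joined, an alternative added after the data were seen. The rho between RAD21 and gene density, 0.722, was 0.554 when gene density was the share of the window covered by genes, and the cause was not tested. The length difference of 12 bp between gene ends and the space between genes turned to -6 bp among peaks with CTCF and grew to 26 bp among those without. The difference of -4 bp inside genes became -21 bp with CTCF. Every other alternative moved these 5 values by less than the SD over autosomes, which was wide for the length differences (6.84 bp at gene ends, 5.59 bp inside genes). Leaving out the shortest peaks took the difference at gene ends from 12 to 6 bp. It took the difference inside genes from -4 to -9 bp. Both kept their sign but not their size. A difference of mean log2 length kept gene ends above the space between genes. Depth was unknown, and the list has a shortest length, so weaker sites can be missing. No paired analysis was possible because there was 1 RAD21 library and the groups were not compared by a test.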

Other observations

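The X chromosome had fewer RAD21 peaks called per Mb than any autosome. It held 11.3 RAD21 peaks per Mb, against 24.5 to 41.6 on the autosomes, although its 5.75 protein-coding genes per Mb were close to those of the lowest autosome, chromosome 12 (5.80). CTCF, at 7.11 peaks per Mb (autosomes 15.2 to 32.2), and H3K4me3, at 3.54 (5.97 to 14.3), were lower there too. The part of the number of X copies in these counts was not tested. The 1893 RAD21 peaks on X had a median length of 135 bp, a median spacing of 28812 bp, 18.7% of peaks in runs and 53.5% overlapping CTCF.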
